A study of Homo sapiens with 4 samples.

Results

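Olfactory receptor (OR) genes code for the odorant receptors of the nose, and their neighbourhoods were examined here as loci whose genes are mostly silent outside the olfactory epithelium. The genes were chosen by name only, as autosomal protein-coding genes whose symbol is OR followed by digits, letters and digits, and each was taken with 5000 bp on both sides. This gave 398 of 19229 autosomal protein-coding genes of GENCODE on hg19, which merged into 308 neighbourhoods with 5.97 Mb, or 0.222% of the determined bases of the autosomes. The neighbourhoods held 963 of 382958 autosomal summits in the control library, 366 of 306360 in the siStar-PAP library and 378 of 276105 in the siRBM10 library.

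The summits came from HITS-CLIP, in which RNA crosslinked to a protein by UV light is pulled down and sequenced, of the non-canonical poly(A) polymerase Star-PAP in HEK293 cells, a human embryonic kidney line. The 3 libraries analysed were pulled down with an anti-StarPAP antibody from control cells, from cells transfected with siRNA against Star-PAP and from cells transfected with siRNA against RBM10, an RNA binding protein that associates with Star-PAP. The labels give transfection with Oligofectamine, harvest after 48 h and crosslinking with 400 mJ per cm2 for all of them, whereas the methods of the study name calcium phosphate for transfection. The label of the control library names it only as a Star-PAP pull-down, with no siRNA of its own. The IgG pull-down entered only as the reference against which peaks were called. Each condition was 1 library, so no difference between conditions has a replicate check and no test was made between them. Each list gave the position of a peak's highest point, the summit, without strand, width or number of tags, and a score, the −log10 of the p-value of the peak caller. The lists carry no read numbers, so precision is stated for numbers of summits. Intervals are 95% Poisson intervals for densities and 95% Wilson intervals for shares, and both cover counting error only.

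Odorant receptors are G protein-coupled receptors, and their genes form the largest gene family of mammals. The coding sequence usually lies in a single exon, and the genes stand in clusters on many chromosomes, each cluster grown by local duplication. In olfactory neurons a single receptor gene is chosen per cell, while in other tissues the clusters lie in compact, silenced chromatin. Class I receptors, of families 51, 52 and 56, resemble those of fish and lie together on chromosome 11, and class II holds the other families. Some receptors are also known outside the nose, such as OR51E2 in prostate. The files hold no measure of expression, so that the silence of these genes in the cells used was not tested.

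Summits of high score show what these loci contributed at their strongest. The reference sequence of hg19 from 14 bases before to 14 bases after each summit is printed on the plus strand, since the lists give no strand, with ATA and its reverse complement TAT in capitals, because AUA is the element described for Star-PAP. In the control library they included the following, with the nearest receptor gene named first.
OR5K1, 3928 bp outside the gene, chr3:98195682-98195710: gatgtaggTATttaatgcTATgatcagtc
OR52K1, coding sequence, chr11:4510661-4510689: ccattgctactgtgaacacatggctgtgg
OR2V1, intron, chr5:180553760-180553788: acaaATAcagacATATAcacagacacaca
OR2A12, coding sequence, chr7:143792849-143792877: tacttgcacatcctggtggccatcttgag

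The first and second of these summits had a score of 5.77, the third had 5.55, and the last had 4.53, a score that 7 control summits of the neighbourhoods shared. The OR summits of high score in the depleted libraries were at other places. In the siStar-PAP library they included the following.
OR7C1, 511 bp outside the gene, chr19:14899547-14899575: ATActttcatcagtgaccactcttggggc
OR6B3, intron, chr2:240990009-240990037: taatcccagctactccaaagtctgaggta
OR1D5, coding sequence, chr17:2966585-2966613: gagaccaggaagtagagctgtgtcagaca

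The first had a score of 8.14, and the other two had 6.05. In the siRBM10 library the highest score was 7.28, beside OR1A2, and the next, 5.20, was shared by 24 summits, of which the first 4 in genomic order are shown.
OR1A2, 3542 bp outside the gene, chr17:3105270-3105298: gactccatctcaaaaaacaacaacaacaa
OR10T2, 3826 bp outside the gene, chr1:158373068-158373096: ctggttgcttggcacttttgggaattacc
OR52I1, 2685 bp outside the gene, chr11:4618914-4618942: ctttgcagccttctcccttaacattcagg
OR51D1, 1777 bp outside the gene, chr11:4656916-4656944: catgaactgATATgtgtttggaagatcac
OR51F1, coding sequence, chr11:4790704-4790732: aagacccatttgaatgattctggaattag

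Because sequencing depth of pull-down and IgG alike enters a score, scores are compared only within a list.

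With the flanks and GC windows used here, control OR neighbourhoods did not differ from other sequence of their base composition beyond counting error. With some other settings the control interval lay above 1. In both depleted libraries the OR neighbourhoods held fewer summits than such sequence. The density was 161 summits per Mb (151 to 172) in control, 61.3 (55.2 to 67.9) on siStar-PAP and 63.3 (57.1 to 70.0) on siRBM10. The autosomes outside the neighbourhoods had 143, 114 and 103 summits per Mb. The OR density was thus 1.13 times the autosomal density in control (1.06 to 1.21), 0.537 times on siStar-PAP (0.483 to 0.595) and 0.615 times on siRBM10 (0.555 to 0.680). The interval lay above 1 in control and below 1 in both depleted libraries.

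**Figure D1:**
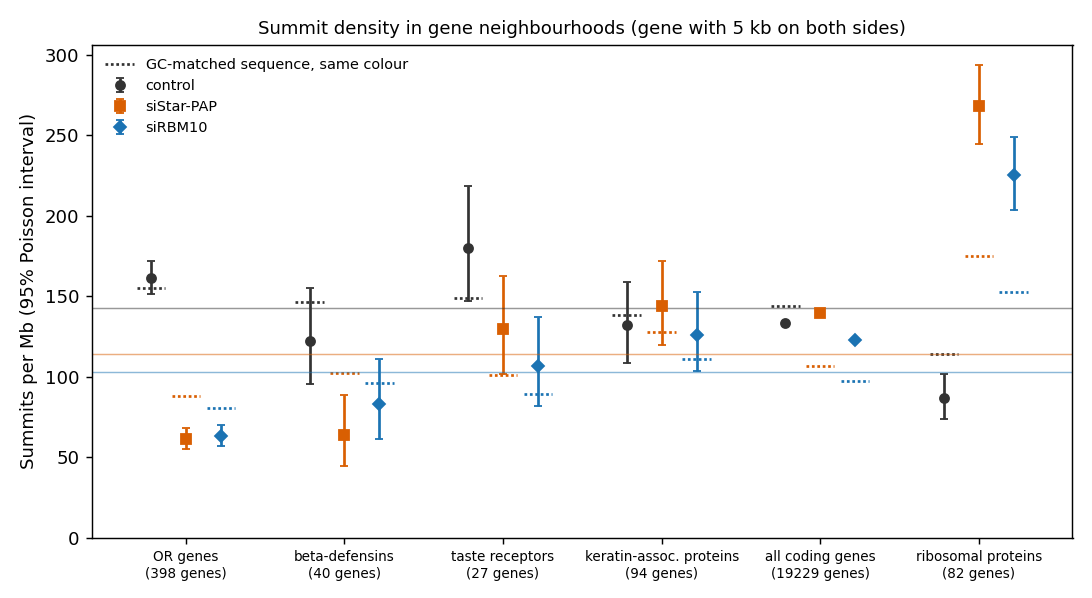
Summits per Mb (vertical axis) in the neighbourhoods of gene groups for the control, siStar-PAP and siRBM10 libraries, with 95% Poisson intervals, dotted marks for autosomal sequence of the same GC content and thin lines for the autosomal mean of each library. OR genes had 161 summits per Mb in control against 61.3 and 63.3 in the depleted libraries, while ribosomal protein genes had the reverse order.

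The neighbourhoods are poor in GC, with 38.3% against 41.0% for the other autosomal sequence, and the summits of the lists followed base composition in different ways. For this reason the number expected from the density of autosomal sequence in the same bin of GC content, read in windows of 1 kb, was set beside each count. Sequence of the GC content of the OR loci had 155 summits per Mb in control, 87.9 on siStar-PAP and 80.6 on siRBM10. Relative to it, the OR density was 1.04 in control (0.975 to 1.11), 0.697 on siStar-PAP (0.628 to 0.772) and 0.785 on siRBM10 (0.708 to 0.868). Against GC-matched sequence the control interval included 1, and the deficit of the depleted libraries was smaller than against the autosomal mean.

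**Figure D2:**
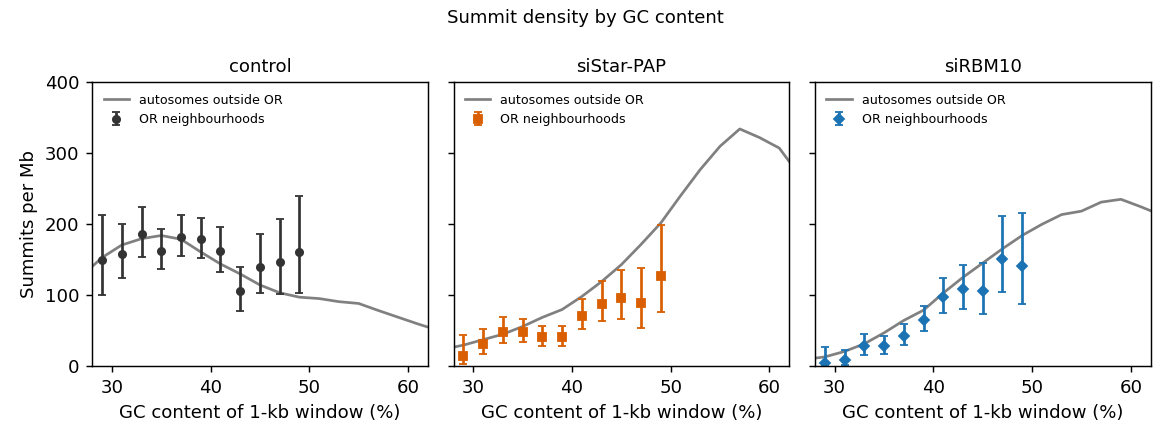
Summits per Mb (vertical axis) against the GC content of 1-kb windows in percent (horizontal axis) for autosomal sequence outside the OR neighbourhoods (grey line) and for the OR neighbourhoods (points with 95% Poisson intervals), 1 panel per library. The control line is highest near 35% GC and falls toward high GC, the lines of the depleted libraries rise up to above 55%, and the OR points of the siStar-PAP library lie below the line from 34% GC upward.

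By GC content, the autosomal control density was highest in windows of 34 to 36% GC, with 184 per Mb, and 97.3 in windows of 48 to 50%. On siStar-PAP it went the other way, from 55.99 in the former windows to 202 in the latter, and on siRBM10 from 47.0 to 184. In OR windows of 38 to 40% GC, siStar-PAP had 40.7 summits per Mb (28.3 to 56.6), against 79.9 in other autosomal windows. In the same windows the control library had 179 (152 to 210) in OR neighbourhoods and 161 elsewhere, and siRBM10 had 65.1 (49.2 to 84.5) and 79.0. The siStar-PAP deficit was not present at every GC content. In windows of 32 to 34% GC the OR loci had 48.3 siStar-PAP summits per Mb (32.3 to 69.3) against 45.1 elsewhere, and the intervals included the value elsewhere in each bin from 28 to 36% and from 42 to 44%. From 36 to 42% and from 44 to 50% they lay below it.

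Counted against the control library, the OR neighbourhoods held 61.99% fewer summits on siStar-PAP (57.1 to 66.4) and 60.7% fewer on siRBM10 (55.7 to 65.2). Over the autosomes outside them the lists were shorter by 19.9% and 27.8%, and the numbers expected from GC-matched sequence were lower by 43.3% and 48.0%. Relative to the autosomes, the ratio of depleted to control summits in OR loci was 0.475 (0.420 to 0.536) on siStar-PAP and 0.544 (0.482 to 0.613) on siRBM10. Relative to GC-matched sequence it was 0.670 (0.593 to 0.757) and 0.755 (0.669 to 0.851). Both comparisons share the control library.

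The contribution of chromosome 11, which carries 171 of the genes in 2.43 Mb of neighbourhood, differed between libraries. In control its OR loci had 189 summits per Mb (172 to 207), against 143 for the whole chromosome. Without chromosome 11 the control OR density was 0.997 times the autosomal density (0.911 to 1.09) and 0.930 times that of GC-matched sequence (0.850 to 1.02). The interval against the autosomal mean then included 1. What remained held the sparse loci of chromosome 6, with 2 control summits in 0.253 Mb, and also chromosomes whose OR loci lay above their own mean, such as chromosome 19 with 155 (116 to 202) against 101 and chromosome 17 with 155 (113 to 209) against 111. Matched by chromosome over the full set, the control ratio was 1.18 (1.11 to 1.26). In the depleted libraries its OR loci had 58.8 and 62.5 summits per Mb, against 106 and 93.5 for the whole chromosome.

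The reference also mattered for the size of the deficit. When only sequence outside all annotated genes was used as the GC-matched reference, a choice made after the data were seen, the ratio was 1.03 in control (0.965 to 1.10), 0.803 on siStar-PAP (0.723 to 0.889) and 0.879 on siRBM10 (0.792 to 0.972). Intergenic sequence as a whole had 147 summits per Mb in control, 94.4 on siStar-PAP and 87.5 on siRBM10.

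The 398 genes were also compared with other genes through windows of 10 kb centred on each gene, which are of equal length for short and long genes. In control 313 OR windows, 78.6% (74.3 to 82.4), held a summit, against 58.5% of all 19229 protein-coding genes and 80.2% of genes outside the family with windows of the same GC content. On siStar-PAP 176 OR windows, 44.2% (39.4 to 49.1), held a summit, against 77.1% of all genes and 61.97% of GC-matched genes. On siRBM10 178 OR windows, 44.7% (39.9 to 49.6), did so, against 73.7% and 57.4%. Windows of neighbouring receptors overlap and can share a summit, so the genes are not independent.

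**Figure D3:**
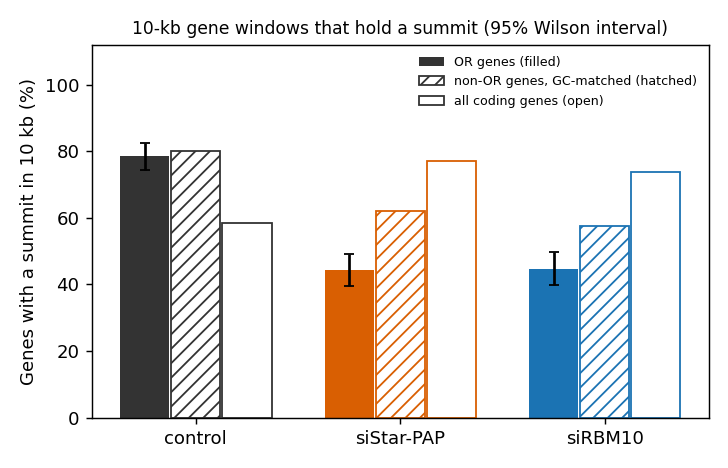
Share of genes in percent (vertical axis) whose 10-kb window holds at least 1 summit in each library, for the 398 OR genes (filled, with 95% Wilson intervals), for other genes weighted to the GC content of the OR windows (hatched) and for all autosomal protein-coding genes (open). The OR share was 78.6% in control, between the other bars' 80.2% and 58.5%, and 44.2% and 44.7% in the depleted libraries, below both.

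By the pattern over libraries, 161 OR windows, 40.5% (35.7 to 45.3), held a control summit and no siStar-PAP summit, against 15.0% of all genes and 30.8% of GC-matched genes. For siRBM10 this held for 168 OR windows, 42.2% (37.5 to 47.1), against 17.4% and 34.5%. The opposite pattern, a siStar-PAP summit without a control summit, was found for 24 OR windows (6.03%), against 33.6% of all genes and 12.6% of GC-matched genes, and for siRBM10 for 33 (8.29%), against 32.5% and 11.7%. All 3 libraries had a summit in 78 OR windows (19.6%), against 33.0% of all genes and 30.6% of GC-matched genes. No library had one in 47 OR windows (11.8%), against 3.94% and 4.06%.

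Other tissue-restricted gene groups, taken in the same way, did not form a single pattern with the OR genes. The neighbourhoods of 40 beta-defensins, secreted antimicrobial peptides of epithelia, came closest, with 122 summits per Mb (95.2 to 155) in control, 63.9 (44.7 to 88.4) on siStar-PAP and 83.4 (61.3 to 111) on siRBM10. The siStar-PAP value was 0.624 times that of GC-matched sequence (0.437 to 0.864). The 27 taste receptors, also G protein-coupled chemosensors, had 180 (147 to 218), 129 (102 to 162) and 107 (81.6 to 137) summits per Mb, which on siStar-PAP was 1.28 times the GC-matched density (1.01 to 1.61). The 94 keratin-associated proteins of hair had 132 (109 to 159), 144 (119 to 172) and 126 (103 to 153), and their ratio to GC-matched sequence on siStar-PAP was 1.13 (0.934 to 1.34). A low siStar-PAP density thus did not mark every group of tissue-restricted genes, and in that library the intervals of the taste receptors and keratin-associated proteins did not overlap that of the OR genes. The 4 vomeronasal receptor genes had 11, 7 and 4 summits and were too few for a comparison.

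The reverse order was measured around ribosomal protein genes, which were taken as a group in general use. Around the 82 genes of cytosolic ribosomal proteins and their close paralogues there were 87.0 summits per Mb in control (73.7 to 102), 268 on siStar-PAP (245 to 294) and 225 on siRBM10 (204 to 249). Relative to GC-matched sequence these were 0.760 (0.644 to 0.891), 1.53 (1.40 to 1.68) and 1.48 (1.33 to 1.63). All protein-coding neighbourhoods together were at 0.923 in control, 1.31 on siStar-PAP and 1.26 on siRBM10. Without matching for GC, control summits were denser in OR loci than in ribosomal protein loci, by 161 to 87.0 per Mb. Summits of the depleted libraries were sparser, by 61.3 to 268 and by 63.3 to 225. The ribosomal protein loci had 47.1% GC, against 38.3% in OR loci. GC-matched sequence alone had 155 against 114 summits per Mb in control, 87.9 against 175 on siStar-PAP and 80.6 against 153 on siRBM10.

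The low density of the depleted libraries extended beyond the neighbourhoods. On siStar-PAP there were 61.7 summits per Mb in the genes (52.3 to 72.2), 61.0 within 5 kb of them, 74.3 from 5 to 10 kb (64.3 to 85.5), 89.4 from 20 to 50 kb and 168 from 500 to 1000 kb (163 to 173). On siRBM10 the corresponding values were 77.2 (66.7 to 88.8), 53.2, 54.1 (45.6 to 63.8), 81.6 and 141. Control density went the other way, from 164 in the genes (148 to 180) and 172 from 5 to 10 kb to 105 from 100 to 200 kb (98.7 to 111.7) and 117 from 500 to 1000 kb. Values just inside and just outside the limit of 5 kb, 160 and 172 in control, 61.0 and 74.3 on siStar-PAP and 53.2 and 54.1 on siRBM10, had overlapping intervals.

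**Figure D4:**
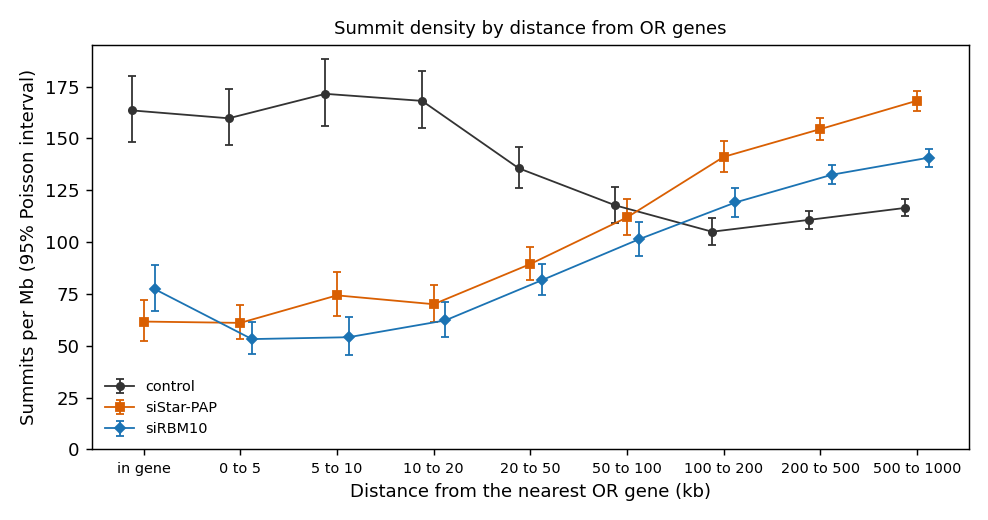
Summits per Mb (vertical axis, 95% Poisson intervals) by distance from the nearest OR gene in kb (horizontal axis, unequal steps) in the 3 libraries. Control lies above the depleted libraries up to 50 kb, 164 against 61.7 and 77.2 in the genes, and below both from 100 kb on.

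GC content rose along the same steps, from 37.7% within 5 kb to 44.9% from 500 to 1000 kb. Relative to GC-matched sequence, siStar-PAP was at 0.646 in the genes (0.548 to 0.755), 0.797 from 20 to 50 kb (0.729 to 0.871), 1.01 from 100 to 200 kb (0.959 to 1.07) and 1.10 from 500 to 1000 kb. Control was at 1.08 (0.976 to 1.19), 0.942 (0.876 to 1.01), 0.799 (0.751 to 0.850) and 0.929. For siRBM10 the ratio in the genes was 0.873 (0.754 to 1.004), an interval that reached just above 1, and it was 0.710 (0.611 to 0.821) within 5 kb of them. The siStar-PAP deficit was no longer present beyond 100 kb, where the control density lay below that of GC-matched sequence.

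Within the neighbourhoods, coding sequence stood apart in control by its ratio to GC-matched sequence and on siRBM10 by its density per Mb. The coding sequences made up 0.378 Mb, with 43.4% GC. In control they held 76 summits, 201 per Mb (158 to 252), which was 1.53 times the GC-matched density (1.21 to 1.92), whereas introns had 159 (140 to 180) and flanks 160 (147 to 174), at 1.02 and 1.01 times. On siRBM10 the coding sequence held 54 summits, 143 per Mb (107 to 187), against 68.1 in introns and 53.2 in flanks (45.8 to 61.5). Its siRBM10 ratio to GC-matched sequence was 1.13 (0.847 to 1.47), beside 0.827 in introns (0.679 to 0.998) and 0.710 in flanks (0.611 to 0.821). The intervals of coding sequence and introns overlapped. On siStar-PAP the coding sequence held 30 summits, 79.4 per Mb (53.6 to 113), at 0.587 times the GC-matched density (0.396 to 0.838), beside 0.741 in flanks (0.644 to 0.848).

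Non-coding exons of the receptor genes had 151 summits per Mb in control (120 to 188), 46.7 on siStar-PAP (30.2 to 69.0) and 57.9 on siRBM10 (39.4 to 82.2). The parts of the neighbourhoods that lie inside another protein-coding gene, 0.675 Mb, had 172 (142 to 206), 53.3 (37.3 to 73.8) and 53.3 (37.3 to 73.8) summits per Mb. The other 5.29 Mb had 160 (149 to 171), 62.3 (55.8 to 69.4) and 64.6 (57.9 to 71.8). The intervals of both parts overlapped in each library, and the densities outside other genes were within the intervals of the neighbourhoods as a whole.

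Neighbourhoods no more than 1 Mb apart were joined into 38 clusters, of which 15 held at least 100 kb. In the full lists, density was lower on siStar-PAP than in control in 15 of these 15 clusters and lower on siRBM10 in 15 of 15. The numbers expected for the OR loci from GC-matched sequence were themselves lower by 43.3% and 48.0%, so these counts alone do not set the clusters apart. In some clusters, such as both on chromosome 19 and that on chromosome 6, the intervals of the libraries overlapped. Density was above that of the whole chromosome in 12 clusters in control and in 0 clusters on siStar-PAP and on siRBM10. The median over the 15 clusters was 172 summits per Mb in control, 61.3 on siStar-PAP and 60.2 on siRBM10. Compared with the sequence within 1 Mb on either side, density was higher in 11 clusters in control, in 1 on siStar-PAP and in 0 on siRBM10. Compared with GC-matched sequence, it was higher in 11, 1 and 2 clusters.

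**Figure D5:**
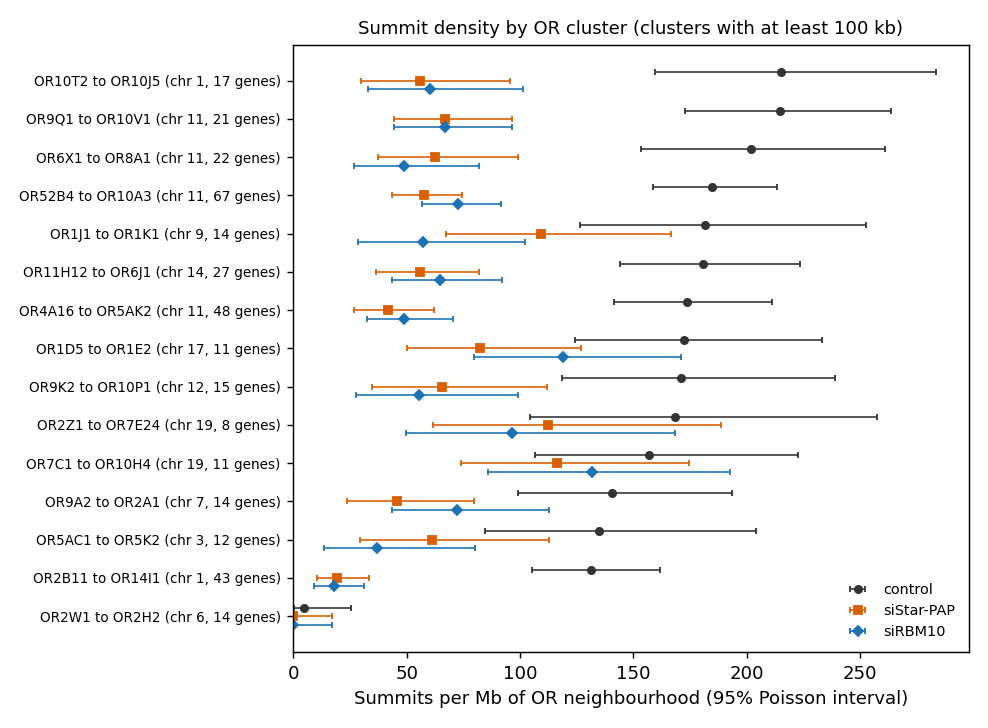
Summits per Mb of OR neighbourhood (horizontal axis, 95% Poisson intervals) in the 15 OR clusters with at least 100 kb, named by their first and last gene, for the 3 libraries. The cluster from OR2W1 to OR2H2 on chromosome 6 held 1 control summit and 0 summits of the depleted libraries, and the cluster from OR2B11 to OR14I1 on chromosome 1 combined 131 per Mb in control with 19.4 and 17.9.

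The largest cluster, chr11:4383493-7968255 from OR52B4 to OR10A3, has 67 genes and holds the class I receptors. It had 183 control summits, 185 per Mb (159 to 213), 57 on siStar-PAP, 57.5 per Mb (43.5 to 74.5), and 72 on siRBM10, 72.6 per Mb (56.8 to 91.4). The sequence within 1 Mb to either side had 130, 135 and 128 summits per Mb, so the cluster stood above its surroundings in control and below them in both depleted libraries. The same held for the 48 genes from OR4A16 to OR5AK2, chr11:55105677-56762318, with 174 per Mb (141 to 211) in control, 41.6 (26.7 to 61.96) and 48.6 (32.3 to 70.2), against 89.3, 110 and 115 to either side. The 27 genes from OR11H12 to OR6J1, chr14:19372594-23118561, had 181 (144 to 224), 55.9 (36.5 to 81.9) and 64.5 (43.5 to 92.1), against 92.5, 151 and 157. The sequence to either side was not matched for GC content. Relative to GC-matched sequence, these clusters had siStar-PAP ratios of 0.675 (0.511 to 0.874), 0.625 (0.400 to 0.929) and 0.693 (0.453 to 1.015). Their siRBM10 ratios were 0.918 (0.718 to 1.16), 0.829 (0.551 to 1.20) and 0.876 (0.591 to 1.25), and these siRBM10 intervals include 1.

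Among clusters of at least 100 kb outside chromosome 6, the lowest values were those of the 43 genes from OR2B11 to OR14I1 at the end of the long arm of chromosome 1, chr1:247607420-248850629. This cluster, with 34 genes of family 2 and 5 of family 14, had 131 control summits per Mb (105 to 162), 19.4 on siStar-PAP (10.3 to 33.1) and 17.9 on siRBM10 (9.24 to 31.2). Relative to GC-matched sequence these were 0.826 (0.663 to 1.02), 0.234 (0.125 to 0.401) and 0.2397 (0.124 to 0.419). The sequence on either side had 184, 70.97 and 52.4 summits per Mb, lower in the depleted libraries than in control as well.

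Among clusters of at least 100 kb, the highest control densities were those from OR10T2 to OR10J5 on chromosome 1, chr1:158363312-159510797, with 215 per Mb (160 to 284), from OR9Q1 to OR10V1, chr11:57786353-59486318, with 215 (173 to 264), and from OR6X1 to OR8A1, chr11:123619288-124457838, with 202 (153 to 261). On siStar-PAP they had 55.9, 66.8 and 62.6 summits per Mb, and on siRBM10 60.2, 66.8 and 48.7. Their intervals overlapped with those of most other clusters, and an order among them was not resolved at these counts. The third lowest control density among them, from OR5AC1 to OR5K2, chr3:97778316-98222475, was 135 (84.5 to 204), with 61.3 and 36.8 on depletion.

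The cluster on chromosome 6, chr6:29006990-29563277 from OR2W1 to OR2H2 beside the major histocompatibility complex, differed from the other clusters of at least 100 kb in holding almost no summits in any library. With 14 genes in 220 kb of neighbourhood it had 1 control summit and 0 in either depleted library, and the densities were 4.56 per Mb (0.115 to 25.4) in control and 0 to 16.8 by the interval on depletion. The sequence within 1 Mb had 29.0, 36.5 and 34.5 summits per Mb, also below the 145, 121 and 110 of chromosome 6. The lists also held 84, 28 and 23 summits on the alternative haplotype sequences of chromosome 6 in hg19. The part of these copies in the low count was not tested. Without chromosome 6 the ratios to GC-matched sequence, an alternative added after the data were seen, were 1.085 in control (1.02 to 1.16), 0.719 on siStar-PAP (0.647 to 0.797) and 0.810 on siRBM10 (0.730 to 0.896).

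The other 23 clusters, all below 100 kb, were less uniform, with 87 control, 74 siStar-PAP and 66 siRBM10 summits in all. Of these, 5 held more siStar-PAP than control summits and 13 fewer, and 8 held more siRBM10 summits and 11 fewer. The neighbourhoods of OR1F1 and OR2C1 stand on chromosome 16, with 2 control, 16 siStar-PAP and 10 siRBM10 summits in 58.0 kb, which is 34.5 (4.18 to 125), 276 (158 to 448) and 172 (82.7 to 317) per Mb. On chromosome 5, the 4 genes from OR2Y1 to OR4F3 had 5 control, 12 siStar-PAP and 12 siRBM10 summits. Both clusters were named after their values had been seen.

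In both receptor classes the control density was the highest of the 3 full lists. The 55 class I genes had 179 summits per Mb in control (152 to 210), 56.1 on siStar-PAP (41.3 to 74.7) and 71.7 on siRBM10 (54.7 to 92.2). The 343 class II genes had 158 (148 to 170), 62.1 (55.5 to 69.3) and 61.95 (55.3 to 69.1). The intervals of the classes overlapped in each library, and a difference between them was not detectable at these counts.

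Of the 17 families, 12 lay above GC-matched sequence in control, 1 on siStar-PAP and 3 on siRBM10, with medians over families of 1.11, 0.665 and 0.766. The interval of each family above it included 1 in every library, and so did the intervals of most families on siStar-PAP. Family 12, with 0 summits in each library, counts among those below. Single families were thus mostly not resolved from GC-matched sequence. The family above GC-matched sequence on siStar-PAP was family 1, with 131 summits per Mb (99.0 to 171) and a ratio of 1.19 (0.895 to 1.55). The gene OR1F1 alone held 14 of its 55 siStar-PAP summits. Family 2, the largest with 68 genes, had ratios of 0.814 (0.683 to 0.962), 0.528 (0.396 to 0.691) and 0.601 (0.452 to 0.782), and it includes 34 of the 43 genes of the sparse cluster at the end of chromosome 1 and 7 of the 14 from OR2W1 to OR2H2 on chromosome 6. Families 11 and 14 had 9 and 8 control summits, at 0.431 (0.197 to 0.818) and 0.497 (0.215 to 0.979) times GC-matched sequence.

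Per gene with its flanks, 56 receptors held no control summit, 89 held 1, 85 held 2 and 168 held 3 or more. On siStar-PAP 181 held none and 35 held 3 or more, and on siRBM10 183 held none and 40 held 3 or more. The longest gene model, OR51B5, has a length of 202209 bp that runs across other receptors beside the beta-globin genes, and it held 41 control, 12 siStar-PAP and 19 siRBM10 summits. The median length of a gene was 1972 bp.

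Single receptors held few summits. In each of the 10 fixed receptors named here the siStar-PAP count was below the control count, and the siRBM10 count was at or below it. The OR neighbourhoods as a whole held 963 control, 366 siStar-PAP and 378 siRBM10 summits. The share of all receptors with this order is not given, so it does not set the 10 apart. The order of the depleted libraries varied. OR51E1 and OR51E2, known from prostate and other tissues, lie on chromosome 11 from 4664650 to 4676718 on the plus strand and from 4701401 to 4719084 on the minus strand. OR51E1 had 3 control, 1 siStar-PAP and 3 siRBM10 summits, and OR51E2 had 6, 0 and 2. OR2AT4, a receptor for sandalwood odorants also described in skin, lies from 74792798 to 74807921 of chromosome 11 and had 8, 5 and 3. OR1D2, described in sperm, had 5, 3 and 4, and OR1A1 had 4, 2 and 4.

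OR5A1, the receptor for beta-ionone, had 7 control, 2 siStar-PAP and 2 siRBM10 summits. OR7D4, which responds to androstenone, had 5, 1 and 2. OR10G4 had 5, 2 and 2, OR6A2, linked to the soapy taste of coriander, had 4, 1 and 0, and OR2W3 had 1, 0 and 0. Counts of this size do not separate the libraries for a single gene.

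The share of OR summits within 500 bp of a summit of another library ran from 6.13% to 18.6%, by pair and direction. Of the control summits there, 70 (7.27%, 5.79 to 9.08) had a siStar-PAP summit within 500 bp and 59 (6.13%, 4.78 to 7.82) had one of siRBM10, against 10.7% and 8.80% of the control summits elsewhere on the autosomes. Of the siStar-PAP summits, 41 (11.2%, 8.37 to 14.8) lay near a siRBM10 summit, against 16.4% elsewhere. In the direction of the control list, 18.6% of siStar-PAP summits (14.9 to 22.9) and 15.3% of siRBM10 summits (12.1 to 19.3) had a control summit within 500 bp, against 13.5% and 12.3% elsewhere. Of the siRBM10 summits, 38 (10.05%, 7.41 to 13.5) lay near a siStar-PAP summit, against 18.25% elsewhere. The density of the list that is searched, in OR loci, was 161 per Mb for control and 61.3 and 63.3 for the depleted libraries. With the same siRBM10 list searched, the share was 6.13% for control summits and 11.2% for siStar-PAP summits, with intervals that did not overlap. What sets these shares was not tested.

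Summits of all 3 libraries lay within 500 bp of each other for 7 of the 963 control summits. Neither the autosomal share nor the number expected by coincidence was set beside this count. The sites are therefore listed as positions where the lists met, and not as repeated binding. The 7 sites are shown by the sequence around the control summit, as before with ATA and TAT in capitals.
OR2V2, intron, chr5:180576301-180576329: tgtgtgtgagaggagaggactccagaATA
OR2V2, intron, chr5:180576717-180576745: agcagggctgggtcttgggcccatggctt
OR10H1, intron, chr19:15924521-15924549: cagagagaggtggggagagagaagtgggg
OR10G4, non-coding exon, chr11:123888319-123888347: tgaatctaggatTATAaagtgcacatgga
OR8B12, 4331 bp outside the gene, chr11:124419546-124419574: aaagcaattcaacaagagaaaaaaaattt
OR13A1, coding sequence, chr10:45799408-45799436: tcatcatgctgctgtaatgcagcgggtgg
OR4A15, 695 bp outside the gene, chr11:55134741-55134769: aaaaaaagATAaATAcTATATAaATATca

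The first and second sites share the siStar-PAP summit at 180576267 and the siRBM10 summit at 180576593 in OR2V2, so that they are a single place with 2 control summits. Their control scores were 2.85 and 2.74, beside 3.4 on siStar-PAP and 1.85 on siRBM10. At OR8B12 the control and siStar-PAP summits fell on the same base, 124419560, with scores of 1.33 and 2.92. None of the 7 sites was among the summits of high score shown before.

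In control, high scores were less frequent in the neighbourhoods than elsewhere. The highest control OR score was 5.77, where the highest on the autosomes was 121, and 0 of 963 OR summits reached a score of 6, which by a floor of 3 counts allows a share of up to 0.312%, against 0.379% of autosomal summits. The Wilson interval of this share reaches 0.397% and includes the autosomal share. A score of 4 or more was reached by 1.45% of control OR summits (0.868 to 2.43), against 2.51% of autosomal summits. A score of 3 or more was reached by 6.23% of control OR summits (4.87 to 7.94), against 9.45% on all autosomes, and by 27.5% (24.8 to 30.4) against 33.6% for a score of 2 or more. The commonest control score, 1.33, was carried by 70.2% of OR summits and 63.1% of autosomal summits.

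On siStar-PAP 4 OR summits (1.09%, 0.426 to 2.78) had a score of 6 or more, against 0.604% of autosomal summits, and on siRBM10 1 had (0.265%, 0.0467 to 1.48), against 0.780%. A score of 4 or more was reached by 5.19% of siStar-PAP OR summits (3.35 to 7.96), against 6.33% on the autosomes, and by 14.6% of siRBM10 OR summits (11.4 to 18.5), against 12.4%. At a score of 2 or more both depleted lists had larger shares in OR loci than on the autosomes, unlike the control list. A score of 3 or more was reached by 59.8% of siRBM10 OR summits (54.8 to 64.6), against 46.0% on the autosomes, and by 8.20% of siStar-PAP OR summits (5.80 to 11.5), against 11.4%. A score of 2 or more was reached by 96.6% of siRBM10 OR summits (94.2 to 98.0), against 90.2%, and by 89.9% of siStar-PAP OR summits (86.4 to 92.6), against 84.2%. The commonest siStar-PAP score, 2.92, was carried by 35.8% of OR summits, against 22.1% on the autosomes. The commonest siRBM10 score, 3.25, was carried by 36.5% of OR summits, against 22.2%. In each list the OR summits were thus more often of the commonest score than autosomal summits were. This score lay below 2 in control, between 2 and 3 on siStar-PAP and above 3 on siRBM10. The shares at limits of 2 and 3 therefore depend on its side of the limit, and do not rank OR summits as stronger or weaker.

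The sequence around OR summits was read in windows of 29 nt, searching both strands. ATA or TAT was found in 57.0% of control windows (53.9 to 60.1), against 58.4% of all windows of this length in the neighbourhoods, with 39.2% GC against 38.3%. It was found in 48.1% of siStar-PAP windows (43.0 to 53.2), with 44.03% GC, and in 44.4% of siRBM10 windows (39.5 to 49.5), with 44.7% GC. Control summits in OR loci thus had the frequency of the loci themselves, and summits of the depleted libraries fell on richer sequence with fewer matches. Around autosomal summits elsewhere the shares were 51.8%, 35.8% and 36.3%.

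Runs of 6 A or 6 T, read because the study describes RBM10 as binding U-rich or G-rich RNA, were found in 7.27% of control OR windows (5.79 to 9.08), 5.74% of siStar-PAP windows (3.78 to 8.61) and 4.76% of siRBM10 windows (3.03 to 7.40), against 6.14% of all windows in the neighbourhoods. Runs of 6 G or 6 C were found in 3, 4 and 1 windows. A match of letters is a description of the window and not a binding site.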

How the data were processed

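Star-PAP HITS-CLIP peak lists of HEK293 cells were used from 3 of the 4 samples, and the IgG library entered only through peak calling. Per the labels and the methods of the study, the authors filtered the reads, trimmed them with cutadapt, collapsed duplicates, aligned to hg19 with BWA, retained only reads of 18 nt or more with a single place in the genome and ran MACS2 on each pull-down with IgG as control, a fragment size of 500 and p 0.05. The submitters' processing notes name FastQC 0.72, cutadapt 1.14 and BWA 0.7.12. The deposited lists give summits of 1 bp, each with a −log10 p-value made by MACS2. GRCh37 and GENCODE release 44 mapped to it served as reference.

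Summits were counted per Mb of determined bases in the merged neighbourhoods. GC-matched numbers were computed from all autosomal sequence outside the neighbourhoods, without random draws, in 1-kb windows and bins 2 percentage points wide. Ratios of 2 counts carry exact conditional intervals. Gene windows measured 10 kb. Alternatives were other flanks, p at most 0.01, other references, GC windows and distances, added pseudogenes and left-out regions. Genes were named as the 5 summits of highest score per library, sites with summits of all 3 libraries, the clusters of highest and lowest control density and of most genes, and 10 fixed receptors. Some of the summits that the rule selects are not reported here. The gene set, groups and rules were chosen with earlier results of these data known. Functions were tested on simulated data with known answers. Computations used Python 3.11.15 with scipy 1.17.1, numpy 2.4.6 and pandas 2.3.3, and figures used matplotlib 3.10.9.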

Additional observations from a re-analysis of the deposited data

How the results depend on the processing

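Of 82 alternative values, 60 stayed within the 95% interval of the value reported or, for counts of clusters, close to it. The control density relative to the autosomal mean changed side, from 1.13 to 0.926 with p at most 0.01 and to 0.997 without chromosome 11, both with intervals that include 1. Relative to GC-matched sequence it was 0.930 without chromosome 11. Its interval lay above 1 with GC windows of 200 bp (1.11, 1.04 to 1.185), added pseudogenes (1.07, 1.02 to 1.125) and flanks of 10000 bp (1.06, 1.01 to 1.12). It also lay above 1 without chromosome 6, as given above, and included 1 in the other alternatives. On siStar-PAP the ratio to the mean was 0.479 when matched by chromosome, and that to GC-matched sequence was 0.803 with the intergenic reference, which was chosen after seeing the data. On siRBM10 the ratio to the autosomal mean was 0.750 without flanks, and that to GC-matched sequence was 0.873 without flanks, with an interval that includes 1, and 0.879 with the intergenic reference. The siStar-PAP change relative to the autosomes, 0.475, was 0.670 with the GC-matched reference, 0.619 with p at most 0.01 and 0.552 without chromosome 11. The siRBM10 change, 0.544, was 0.755, 0.711 and 0.620, and 0.654 without flanks. A limit of p at most 0.01 cuts the lists unequally: it drops the commonest score of control and keeps those of both depletions. With it, 265 control, 329 siStar-PAP and 365 siRBM10 OR summits remained, so control no longer had the most. Within 250 and 100 bp, 3.63% and 1.97% of control OR summits had a siStar-PAP summit, 3.01% and 1.142% had a siRBM10 summit, and 5.46% and 2.19% of siStar-PAP summits had a siRBM10 summit. With gaps of 500 kb, 17 of 17 clusters of at least 100 kb were lower on either depletion in the full lists. The cause of these differences was not tested. With 1 library per condition, the spread between libraries of a condition is unknown, and the uniqueness of sequence in duplicated genes, which limits where reads can map, was not measured.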

Other observations

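The OR gene of chromosome X, OR13H1, lay outside the autosomal set. With 5000 bp on both sides it held 3 control summits, 1 siStar-PAP summit and 1 siRBM10 summit.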
